A study of Mus musculus with 6 samples.

Results

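The genes described here are 10 genes of hepcidin and liver iron handling, Hamp, Hamp2, Bmp6, Hjv (also written Hfe2), Hfe, Tfr2, Tmprss6, Tfrc, Slc40a1 and Fth1. They were chosen by role and symbol, through probe sets that the array annotation gives exactly 1 gene symbol. The measured value in that choice was the mean signal over the 6 arrays, meant to pick 1 probe set per gene, and each gene had only 1. All 10 were found, of 19938 genes with such a probe set, and all 10 were above the floor described below on at least 1 array. The choice was made with the difference in Hamp already known, so that difference is described here and supports nothing. Whole-liver transcripts of 3 TLR3-/- mice were set against those of 3 TLR3wt mice, all untreated, with 1 array per animal. All were C57Bl/6 animals of 3 months, bred in-house under SPF conditions. The labels say neither how the TLR3 allele was made nor whether the groups were littermates.

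Values are log2 RMA signals, and no value in the table lies below 5, the floor. Of all probe sets, 16639 were above the floor on at least 1 array and were tested with limma (adjusted p threshold 0.05 over all of them). The arrays were of like brightness, with medians of 6.54 to 6.59 over the tested probe sets. Pairs of arrays correlated at 0.984 to 0.991 inside a group and at 0.980 to 0.988 across groups, as a description over probe sets. Tlr3 itself was at 5 on every array, so the data gave no check of the genotype labels. The hepatocyte gene Alb lay between 13.02 and 13.09 on the TLR3-/- arrays and between 13.07 and 13.09 on the TLR3wt arrays. TLR3wt replicate 3 stood apart by high acute-phase transcripts, with Lcn2 at 10.19 against 6.92 and 7.34 in the other TLR3wt livers.

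Hepcidin, the product of Hamp, is a peptide hormone that hepatocytes release into the blood. It binds ferroportin, the iron exporter encoded by Slc40a1, and causes its removal from the cell surface, so that less iron enters the plasma from the gut and from macrophages. Transcription of Hamp is driven by bone morphogenetic proteins acting through SMAD factors, with hemojuvelin (Hjv) as co-receptor and HFE and transferrin receptor 2 (Tfr2) as sensors of iron-loaded transferrin. The protease matriptase-2 (Tmprss6) lowers it by cutting hemojuvelin, and interleukin-6 raises it through STAT3.

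The mouse carries a pair of hepcidin genes, and their promoters are shown because the pair gave unlike signals on the arrays. Both are on chromosome 7 with no other protein-coding gene between them in the RefSeq annotation of GRCm38.p6. The 250 bases before each RefSeq start site are printed, on the minus strand, from chr7:30944030-30944279 for Hamp and from chr7:30924182-30924431 for Hamp2. Capitals mark matches to GGCGCC, the core of the BMP-responsive element, and to TTCNNNGAA, the site bound by STAT factors.
Hamp: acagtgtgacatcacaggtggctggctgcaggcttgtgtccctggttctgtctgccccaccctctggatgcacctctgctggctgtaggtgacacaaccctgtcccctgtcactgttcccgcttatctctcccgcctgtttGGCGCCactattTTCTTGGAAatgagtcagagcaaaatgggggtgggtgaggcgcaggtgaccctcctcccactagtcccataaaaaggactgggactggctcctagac
Hamp2: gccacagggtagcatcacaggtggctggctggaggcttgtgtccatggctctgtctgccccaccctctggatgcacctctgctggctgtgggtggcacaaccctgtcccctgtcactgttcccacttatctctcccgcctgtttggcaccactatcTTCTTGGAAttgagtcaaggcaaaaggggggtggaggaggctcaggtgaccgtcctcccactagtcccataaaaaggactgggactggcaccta
In a global alignment 89.7% of the columns were identical. The Hamp window held 1 GGCGCC, 109 to 104 bases before the start site, and 1 TTCNNNGAA, 97 to 89 bases before it. The Hamp2 window held the same STAT letters, TTCTTGGAA, but its bases aligned to GGCGCC differed by 1 substitution, G4A, counted from the motif's first base with the Hamp base given first. Both strands were searched and the motifs do not overlap. Of 32851 RefSeq promoter windows of this length, 9.59% held GGCGCC and 7.02% held TTCNNNGAA. Of the 10 genes 7 had a window in the RefSeq table, and besides Hamp only Tfrc, whose signal was lower in TLR3-/- livers, held GGCGCC, in 1 of its 2 windows, 89 to 84 bases before the start site. Hjv, Tmprss6 and Slc40a1 were not searched. These matches describe the letters of the windows, not binding.

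Hamp had signals of 10.26, 10.43 and 10.56 in the TLR3-/- livers, against 7.85, 7.25 and 8.42 in the TLR3wt livers. All 3 TLR3-/- livers lay above all 3 TLR3wt livers, with a gap of 1.83 between the lowest TLR3-/- and the highest TLR3wt value. The means were 10.41 ± 0.15 in TLR3-/- and 7.84 ± 0.58 in TLR3wt livers (SD, n = 3 each), so the signal was 5.95-fold higher (95% interval 3.69 to 9.58). It passed the test over all probe sets (log2 difference 2.57 ± 0.28 SE, limma adjusted p = 0.0465). The TLR3-/- livers were alike, spanning 0.30, while the TLR3wt livers spanned 1.17. The call was lost in 12 of 19 other settings, among them each fit without 1 mouse other than the one without TLR3wt replicate 3 (limma adjusted p = 0.0986 to 0.202 in those 5 fits). The difference itself stayed between 2.28 and 2.86 in all 19.

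Hamp2, whose peptide is not known to regulate iron, was at or near the floor. Its signals were 5.59, 5 and 5.39 in TLR3-/- livers and 5, 5 and 5.33 in TLR3wt livers. With 1 TLR3-/- and 2 TLR3wt arrays at the floor the groups overlapped. The log2 difference was 0.21 (95% interval -0.20 to 0.63, limma adjusted p = 0.631). Because both groups had values at the floor, the true difference may be larger, smaller or reversed. The measured difference was 0.08 without TLR3-/- replicate 1, 0.33 without TLR3wt replicate 3 and 0.38 without TLR3-/- replicate 2. The genes are close copies, and the sources used here do not say how far each probe set reads the other's transcript.

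**Figure D1:**
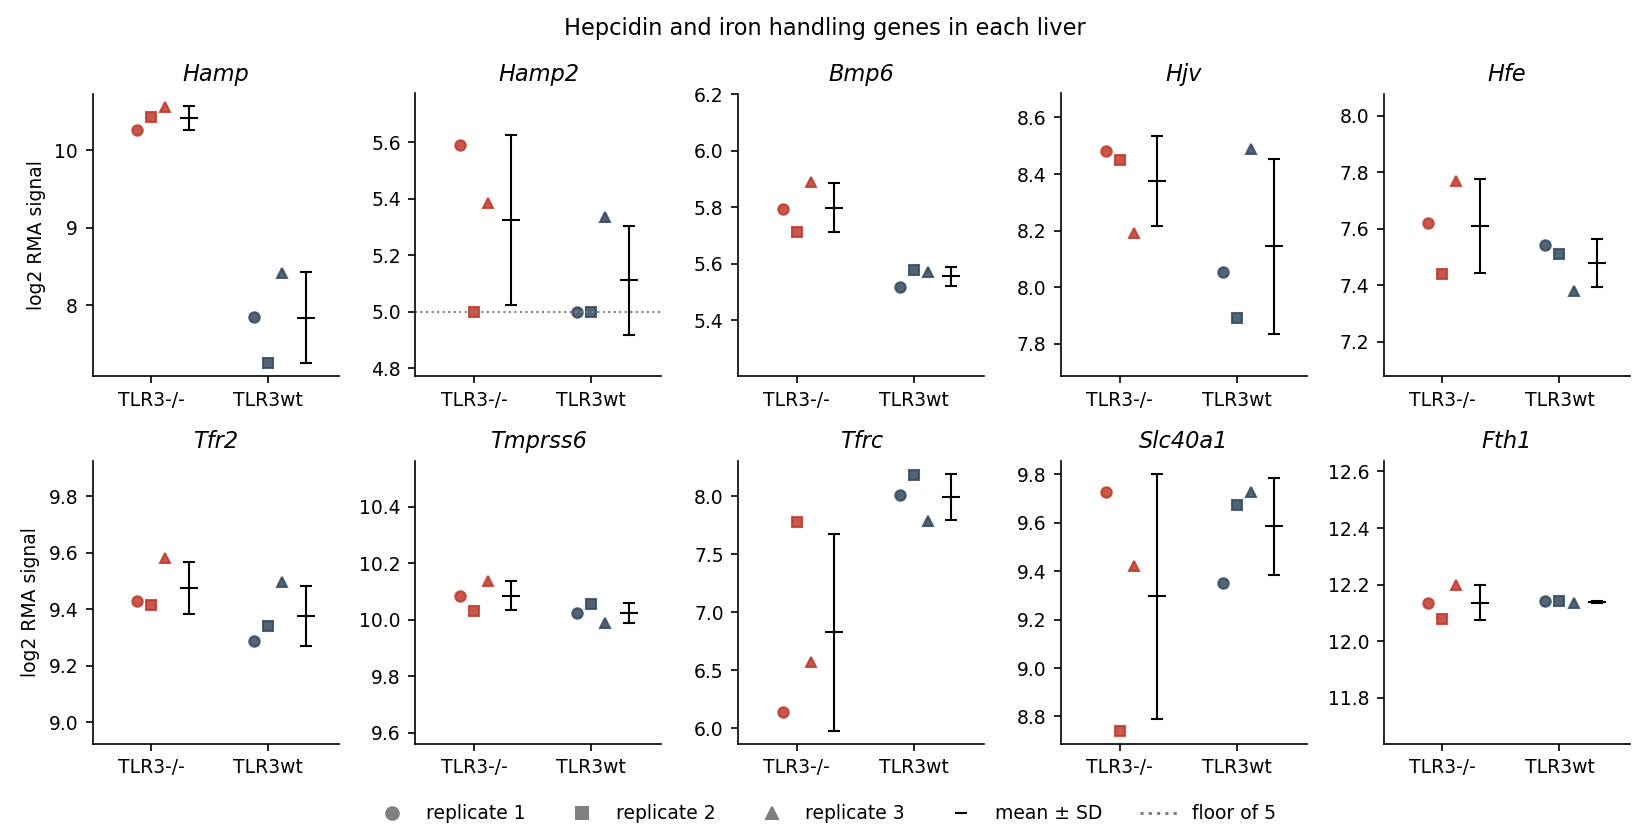
Log2 RMA signal of the 10 genes in each liver, with TLR3-/- left of TLR3wt in each panel. Symbols are single mice, bars are the mean ± SD of 3, the vertical scales differ between panels and span at least 1, and the dotted line is the floor of 5. The 3 TLR3-/- livers stand clear of the TLR3wt livers for Hamp and Bmp6 and, by 0.01, below them for Tfrc.

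Upstream of Hamp, the ligand gene Bmp6 was the 1 regulator of the 5 whose groups were separate. BMP6 is made mainly by the sinusoidal endothelial cells of the liver when iron is plentiful. Its signals were 5.79, 5.71 and 5.89 in TLR3-/- livers, against 5.52, 5.58 and 5.57 in TLR3wt livers. The means were 5.80 ± 0.09 and 5.56 ± 0.03 (SD, n = 3 each), a log2 difference of 0.24 ± 0.06 SE that did not pass over all probe sets (limma adjusted p = 0.194). All of these values were within 1 of the floor. Of 12 markers of sinusoidal endothelium 6 had lower and 6 higher means in TLR3-/- livers, with a summed linear signal of 1949 to 2369 in TLR3-/- and 1873 to 2476 in TLR3wt livers. The sums overlapped. Of the 12, Lyve1 (-0.56) and Pecam1 (-0.24) lay lower in all 3 TLR3-/- livers than in any TLR3wt liver, where 7.62% of tested genes did. None of the 12 passed (limma, 2 at an unadjusted p under 0.05, where 15.7% of tested genes were). The part of these cells in the Bmp6 values was not tested.

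The co-receptor and the iron sensors overlapped between genotypes. Hjv was 8.48, 8.45 and 8.19 in TLR3-/- and 8.05, 7.89 and 8.49 in TLR3wt livers. The highest of the 6 was TLR3wt replicate 3, which also had the highest Hamp of its group. The TLR3wt livers ranked in the same order for Hjv and Hamp, but the TLR3-/- livers ranked in reverse order. Hfe was 7.62, 7.44 and 7.77 in TLR3-/- and 7.54, 7.51 and 7.38 in TLR3wt livers.

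Tfr2 gave 9.43, 9.41 and 9.58 in TLR3-/- livers, against 9.29, 9.34 and 9.49 in TLR3wt livers. The log2 differences were 0.23 for Hjv (95% interval -0.18 to 0.64), 0.13 for Hfe (-0.10 to 0.37) and 0.10 for Tfr2 (-0.10 to 0.29), with limma adjusted p of 0.590, 0.592 and 0.637. The intervals leave room for increases up to 1.56-fold in Hjv but no more than 1.29-fold in Hfe and 1.23-fold in Tfr2. Single mice moved all 3 of these differences by over 1.5 times. Hjv was 0.10 without TLR3wt replicate 2 and 0.40 without TLR3wt replicate 3 (limma adjusted p = 0.251). Hfe was 0.05 without TLR3-/- replicate 3, 0.09 without TLR3wt replicate 3 and 0.22 without TLR3-/- replicate 2. Tfr2 was 0.05 without TLR3-/- replicate 3, 0.06 without TLR3wt replicate 1 and 0.16 without TLR3wt replicate 3.

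The inhibitor Tmprss6 was among the steadiest genes of the group. It measured 10.09, 10.03 and 10.13 in TLR3-/- livers and 10.02, 10.06 and 9.99 in TLR3wt livers. The log2 difference was 0.06 (95% interval -0.07 to 0.19, limma adjusted p = 0.668), so a change in signal beyond 1.14-fold upward lay outside the interval. The difference was 0.04 without TLR3-/- replicate 3 and 0.09 without TLR3-/- replicate 2.

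Among Tfrc, Slc40a1 and Fth1, the genes of the 10 that carry and hold iron, transferrin receptor 1 (Tfrc) had the widest gap between means. It brings iron-loaded transferrin into cells, and its transcript is stabilised by iron regulatory proteins when cellular iron is low. Tfrc measured 6.14, 7.78 and 6.57 in TLR3-/- livers, against 8.01, 8.18 and 7.79 in TLR3wt livers. TLR3-/- replicates 1 and 3 were far below every TLR3wt liver, while TLR3-/- replicate 2 lay 0.01 below the lowest of them. The mean was 6.83 ± 0.85 in TLR3-/- and 7.995 ± 0.20 in TLR3wt livers (SD, n = 3 each), a log2 difference of -1.17 ± 0.41 SE. This did not pass (limma adjusted p = 0.283), and its 95% interval ran from -2.16 to -0.18. Leaving out TLR3-/- replicate 2 gave a difference of -1.64, and leaving out TLR3-/- replicate 1 gave -0.82. The residual SD of Tfrc was above that of 99.6% of the tested probe sets.

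Slc40a1 encodes ferroportin, which hepatocytes and especially the macrophages of the liver use to export iron. Its signals were 9.73, 8.74 and 9.42 in TLR3-/- and 9.35, 9.67 and 9.73 in TLR3wt livers, so the groups overlapped. TLR3-/- replicate 2 was the lowest of the 6. The log2 difference was -0.29 (95% interval -0.91 to 0.34, limma adjusted p = 0.666), and -0.01 without that mouse or -0.50 without TLR3-/- replicate 1.

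Kupffer cells are macrophages of the liver sinusoids. Of 13 tested markers of these cells 12 lay lower in all 3 TLR3-/- livers than in any TLR3wt liver, where 7.62% of tested genes did. None passed over all probe sets in limma, and 12 had an unadjusted p under 0.05, where 15.7% of tested genes did. Cd163, which overlapped, had a log2 difference of 0.11, and Spic was at the floor on all 6 arrays. The brightest marker, the Kupffer cell lectin gene Clec4f, was 7.94, 7.54 and 8.09 in TLR3-/- livers, against 8.44, 8.69 and 8.51 in TLR3wt livers. The summed linear signal of the list was 1162 to 1776 in TLR3-/- and 2194 to 2981 in TLR3wt livers. TLR3-/- replicate 2, with the lowest Slc40a1, also had the lowest mean of the markers (log2, relative to the TLR3wt mean). It was -1.12, against -0.66 and -0.53 in TLR3-/- replicates 1 and 3. TLR3-/- replicate 1 matched the highest TLR3wt liver in Slc40a1, at 9.73 in both. Among the TLR3-/- livers Tfrc was highest in replicate 2, at 7.78. In RNA of whole liver, fewer cells of a type and less RNA per cell cannot be told apart. The part of these cells in the Slc40a1 and Tfrc values was not tested.

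Fth1, the heavy chain of the iron store ferritin, was nearly the same in all livers. It measured 12.13, 12.08 and 12.20 in TLR3-/- livers, against 12.14, 12.14 and 12.13 in TLR3wt livers. The log2 difference was -0.00 (95% interval -0.13 to 0.13, limma adjusted p = 0.987), which bounds an increase in the transcript at 1.09-fold. Ferritin is controlled largely at translation, so its transcript is no measure of stored iron.

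**Figure D2:**
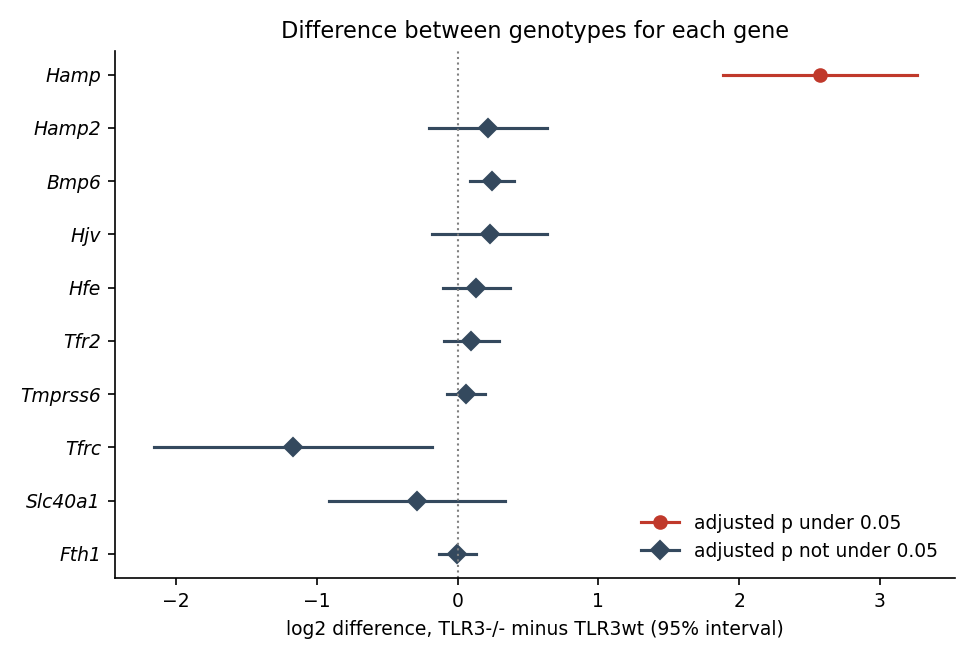
Log2 difference, TLR3-/- minus TLR3wt, of each of the 10 genes with its 95% interval from limma. Hamp (2.57) is the 1 gene that passed the adjusted p threshold, and the intervals of Bmp6 and Tfrc also lie off 0 but did not pass after adjustment.

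Of the 10 genes, 1 passed the test, Hamp, where 0.186% of all tested probe sets passed (31 of 16639) and 0.138% passed as higher. Because Hamp was known to pass when the genes were picked, nothing is read from that share. The genotypes did not overlap in 3 of the 10, higher for Hamp and Bmp6 and lower for Tfrc, where 20.1% of all tested probe sets did not overlap, 13.0% as higher and 7.04% as lower. The other 9 genes had limma adjusted p of 0.194 to 0.987, and in 7 of the 10 the difference was under 0.25 in size. The median difference of the 10 was 0.12, beside 0.03 over all tested probe sets. An exact permutation test over the 6 mice gave p = 0.1 for Hamp, Bmp6 and Tfrc (two-sided), the smallest p that 3 against 3 allows.

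Genes known as targets of the same BMP-SMAD pathway mostly had higher signals in TLR3-/- livers. All 8 listed targets had higher means, where 60.9% of all tested genes did, and in 5 of the 8 the groups did not overlap, where 15.1% of tested genes were separate in that direction. The median log2 difference was 0.39, beside 0.03 over all tested genes. None of the 8 passed over all probe sets in limma, where 0.087% of all tested genes passed. At an unadjusted p under 0.05 in limma there were 6, where 15.7% of all tested genes were. This pattern was known when the list was written.

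Id3, an inhibitor of helix-loop-helix transcription factors, was 7.81, 7.25 and 7.37 in TLR3-/- livers, against 6.24, 6.08 and 5.86 in TLR3wt livers. Every TLR3-/- liver was above every TLR3wt liver, with a log2 difference of 1.42 ± 0.17 SE (limma adjusted p = 0.0617), and Id3 passed when dim probe sets were left out of the fit. Its relative Id2 was 9.72, 9.62 and 9.78 in TLR3-/- and 8.91, 8.10 and 9.20 in TLR3wt livers, a log2 difference of 0.97 (limma adjusted p = 0.211). Smad7, an inhibitor of SMAD signalling, was 6.26, 6.34 and 6.65 in TLR3-/- and 5.88, 5.72 and 6.09 in TLR3wt livers, a difference of 0.52 (limma adjusted p = 0.194).

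The remaining targets lay closer together. Atoh8, a transcription factor gene, had a log2 difference of 0.57 and overlapped narrowly, with 6.70 in both the lowest TLR3-/- and the highest TLR3wt liver. Id4 and Id1 were separate at 0.26 and 0.18, but all their signals were within 1 of the floor. Bambi, a decoy receptor gene (0.23), and Smad6, another inhibitory SMAD (0.14), overlapped. In the TLR3wt group, replicate 2 had the lowest Hamp, Id2 and Smad7 and replicate 3 the highest of each, whereas Id3 was lowest in replicate 3.

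**Figure D3:**
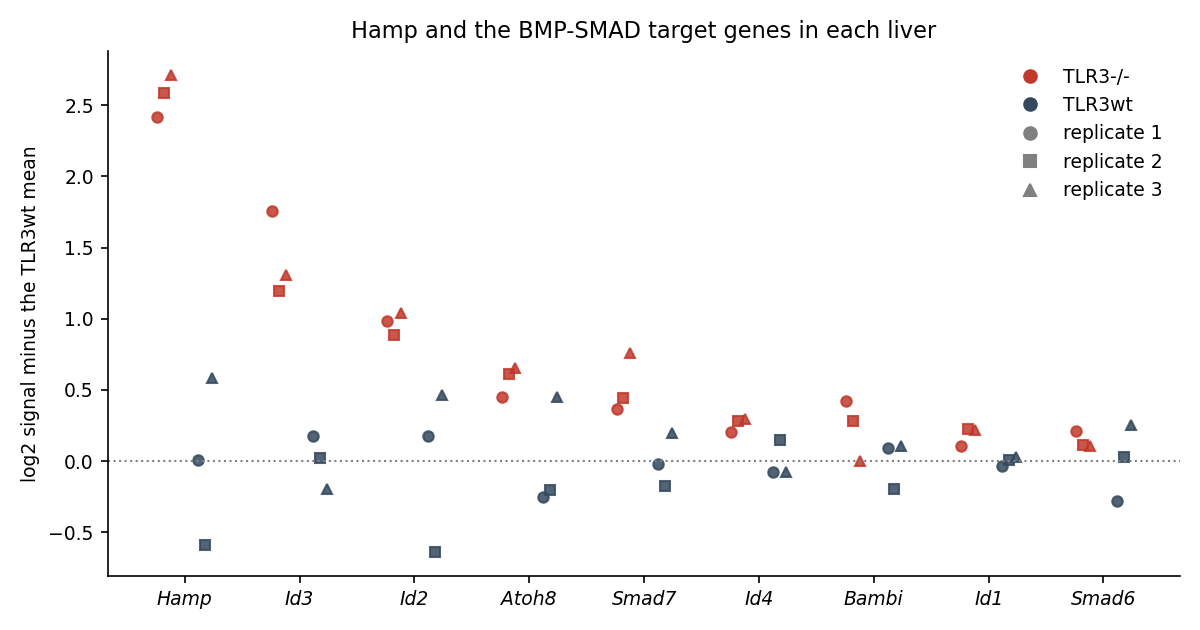
Log2 signal minus the TLR3wt mean for Hamp and the 8 BMP-SMAD target genes in each liver, with TLR3-/- left of TLR3wt for each gene. Hamp, Id3 and Id2 show the widest separation, and Atoh8, Bambi and Smad6 overlap between the groups.

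Ligands, receptors and other regulators of hepcidin differed little in their means, apart from Fgl1 (-0.97). Of 20 tested genes 0 passed (limma, 3 at an unadjusted p under 0.05, where 15.7% of tested genes were). The median log2 difference was 0.07, or 0.03 without TLR3wt replicate 3 and 0.11 without TLR3wt replicate 1. Smad5, a SMAD that BMP receptors activate, was 6.87 ± 0.01 in TLR3-/- and 6.70 ± 0.06 in TLR3wt livers (SD, n = 3 each). Spint2, an inhibitor of matriptase-2, was 8.86 ± 0.07 and 8.66 ± 0.06, and Neo1, the hemojuvelin-binding receptor neogenin, was 6.67 ± 0.12 and 6.47 ± 0.02. In these 3 genes all TLR3-/- livers were above all TLR3wt livers, with limma adjusted p of 0.246 to 0.286. With Acvr2a (0.18), a receptor gene, 4 of the 20 were separate as higher, where 15.1% of tested genes were, and 1, Fkbp1a (-0.16), was separate as lower, where 7.62% were, both named after their values were seen. Fgl1, a hepatocyte protein reported to antagonise BMP6, had 9.08, 9.87 and 10.31 in TLR3-/- and 10.37, 10.30 and 11.51 in TLR3wt livers, and the groups overlapped. Its log2 difference was -0.97, or -0.58 without TLR3wt replicate 3 and -0.64 without TLR3-/- replicate 1. Bmp2, the other endothelial ligand, named after its value was seen, differed by 0.19. Bmp7 and Erfe, the gene of the erythroid hormone erythroferrone, were at the floor on all 6 arrays.

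In the list for interleukin-6 signalling, the interleukin-6 receptor gene and the gene of another cytokine, interleukin-1 beta, had lower values. Il1b was at the floor on all TLR3-/- arrays, against 5.59, 5.71 and 6.24 in TLR3wt livers, at least 1.80-fold lower (limma adjusted p = 0.141). Il6ra, the interleukin-6 receptor, was 7.42, 7.28 and 7.46 in TLR3-/- and 7.64, 8.17 and 8.15 in TLR3wt livers, a log2 difference of -0.60 (limma adjusted p = 0.187). The kinases Jak2 (0.20) and Jak1 (-0.11) were each separate between groups by small amounts. Of this list 1 gene was separate as higher and 3 as lower, where 15.1% and 7.62% of tested genes were. Socs3, a STAT3-induced inhibitor, and Stat3 itself, both named after their values were seen, overlapped at -0.10 and -0.02. Of 9 tested genes of this list 0 passed (limma, 2 at an unadjusted p under 0.05, where 15.7% of tested genes were). The median was -0.03. Without TLR3wt replicate 3 the median was 0.01, with 6 genes higher and 3 lower in place of 3 higher and 6 lower. Il6 and Inhbb were at the floor on all arrays.

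Transport genes for iron and haem had mostly lower means, 14 of 20 tested. The other 6 had higher means, where 60.9% of all tested genes did. The median log2 difference was -0.10, or -0.15 without TLR3wt replicate 1 and again -0.10 without TLR3wt replicate 3. None passed (limma, 3 at an unadjusted p under 0.05, where 15.7% of tested genes were). In 5 all TLR3-/- livers lay below all TLR3wt livers, where 7.62% of tested genes did. Lcn2, which encodes the siderophore-binding protein lipocalin-2, was 5.26, 5.90 and 5.55 in TLR3-/- livers, against 6.92, 7.34 and 10.19 in TLR3wt livers. The log2 difference was -2.58 ± 0.84 SE (limma adjusted p = 0.258), or -1.56 without TLR3wt replicate 3. Hpx, the haem scavenger hemopexin, differed by -0.32, or -0.19 without that mouse. The zinc and iron importer gene Slc39a14 differed by -0.20, or -0.13 without it, and Flvcr1, first described as a haem exporter, by -0.18.

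TLR3wt replicate 3 had the highest signal of the 6 mice in 12 of these 20 genes. These included Lcn2, Hpx, Slc39a14 and, named after their values were seen, haptoglobin (Hp), ceruloplasmin (Cp) and transferrin (Trf). Several of these are acute-phase genes. Hamp in this mouse was the highest of the TLR3wt group and 1.83 below the lowest TLR3-/- liver. Without this mouse the Hamp difference was 2.86 (limma adjusted p = 0.0268). The part of an acute-phase state in the Hamp values was not tested.

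Genes that store iron or sense it in the cytosol differed by small amounts. Ireb2, the iron regulatory protein IRP2, was 8.71, 8.39 and 8.62 in TLR3-/- and 8.50, 8.26 and 8.13 in TLR3wt livers, a log2 difference of 0.28 (limma adjusted p = 0.370). Aco1, the iron regulatory protein IRP1, differed by -0.11, and Cdc42bpa, whose transcript carries an iron-responsive element in human, by 0.16. Ftl1, the ferritin light chain, named after its value was seen, differed by 0.04. Of 10 tested genes 0 passed (limma, 1 at an unadjusted p under 0.05, where 15.7% of tested genes were). The median was 0.05.

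Haem synthesis and breakdown showed larger single differences. Hmox1, the haem-degrading oxygenase abundant in macrophages, was 6.48, 6.36 and 6.48 in TLR3-/- livers, against 6.70, 7.30 and 7.31 in TLR3wt livers. All TLR3-/- livers lay below all TLR3wt livers, where 7.62% of tested genes did. The log2 difference of -0.66 did not pass (limma adjusted p = 0.188). Alas1, the first enzyme of liver haem synthesis, was 9.65, 9.14 and 10.24 in TLR3-/- livers and 11.32, 11.43 and 9.86 in TLR3wt livers. TLR3wt replicate 3 lay inside the TLR3-/- range. The difference was -1.20, or -1.70 without that mouse and -0.92 without TLR3wt replicate 2. The later enzymes Cpox (0.25) and Ppox (0.16) had slightly higher means, with Ppox separate and Cpox overlapping. Of this list 2 genes were separate as higher and 3 as lower, where 15.1% and 7.62% of tested genes were. Of 22 tested genes of mitochondrial iron and haem 0 passed (limma, 4 at an unadjusted p under 0.05, where 15.7% of tested genes were). The median was 0.08, or 0.04 without either TLR3wt replicate 3 or TLR3-/- replicate 3.

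**Figure D4:**
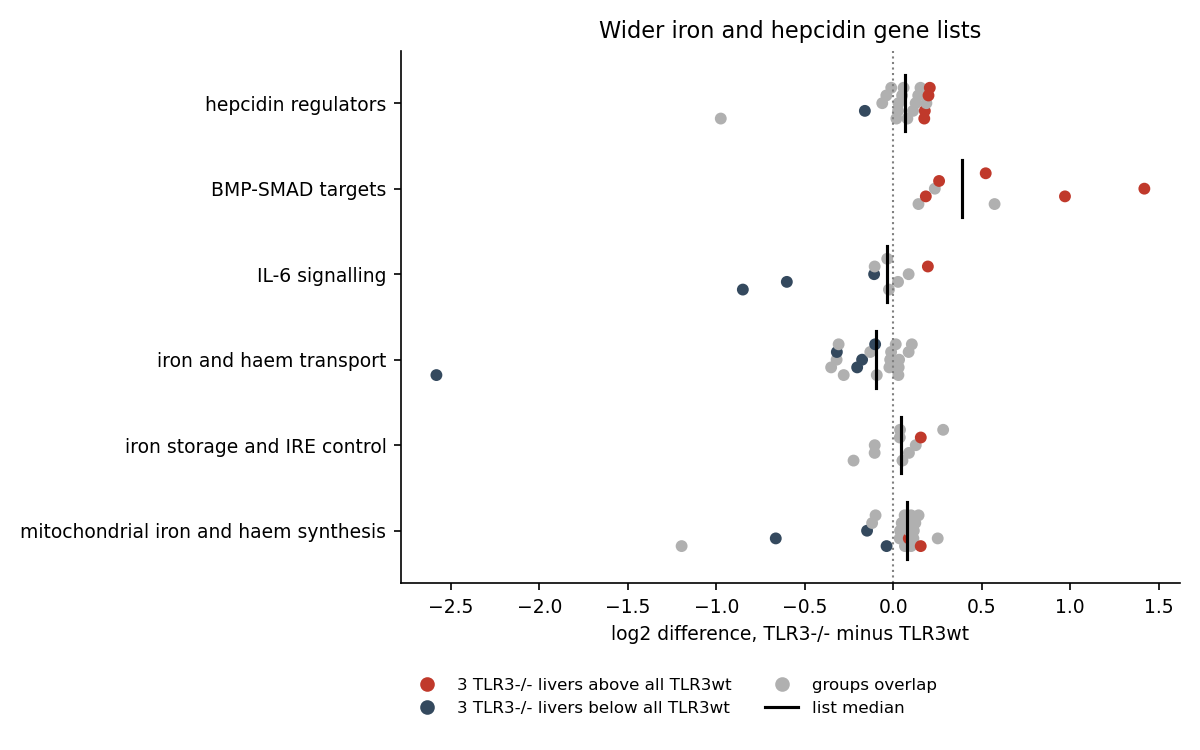
Log2 difference, TLR3-/- minus TLR3wt, of every tested gene of the 6 wider lists, coloured by whether the groups were separate, with a black line at each list's median. The BMP-SMAD targets all lie right of 0 (median 0.39), while the other medians lie between -0.10 and 0.08. Lcn2 is the point at -2.58.

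Over the 6 wider lists, 89 distinct genes were tested and 0 passed in limma, with 0 also in the ordinary pooled-variance test. At an unadjusted p under 0.05 there were 19, or 21.3%, where 15.7% of all tested genes were.

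Other cell types gave the following background. The summed linear signal of 9 hepatocyte markers was 46472 to 46932 in TLR3-/- and 46568 to 47851 in TLR3wt livers, a sum ruled by its brightest genes. Of these 9, Apoa1 (-0.10), Tat (-0.39) and Hnf4a (-0.26) lay lower in all TLR3-/- livers, where 7.62% of tested genes did. Cyp2e1 (0.25) and Serpina1c (0.10) lay higher in all TLR3-/- livers, where 15.1% of tested genes did. None of the 9 passed (limma, 2 at an unadjusted p under 0.05, where 15.7% of tested genes were). Among erythroid markers, Alas2 was 8.91 to 9.06 in TLR3-/- and 8.98 to 9.39 in TLR3wt livers. Slc4a1 was at the floor on all TLR3-/- arrays and on 1 TLR3wt array, and Epb42, Rhag and Tspo2 were at the floor throughout. All 6 neutrophil markers were at the floor on every array, and of 6 T and B cell markers 5 were. Stellate cell and fibroblast markers summed to 2058 to 2207 in TLR3-/- and 1899 to 2092 in TLR3wt livers, a sum also ruled by its brightest genes. Col1a1 (-0.49) and Col3a1 (-0.55) lay lower in all TLR3-/- livers, where 7.62% of tested genes did. Ecm1 (0.20) lay higher in all TLR3-/- livers, where 15.1% did. Of the 7 tested markers 0 passed (limma, 3 at an unadjusted p under 0.05, where 15.7% of tested genes were). The part of these cell types in the iron genes' values was not tested.

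Across the 10346 other tested genes, likeness to Hamp was measured as the root mean square difference, over the 6 arrays, of log2 deviations from the TLR3wt mean. A gene with no change at all would score 1.85. The nearest profile was that of Cyp26a1, a retinoic acid-degrading enzyme, at 0.58, with signals of 8.08, 8.24 and 7.53 in TLR3-/- and 5.63, 5.65 and 6.84 in TLR3wt livers. Mid1, a microtubule-associated ubiquitin ligase (0.76), the sulfotransferase Sult5a1 (0.83) and Id3 (0.94) followed. The nearest mirror image was Igfbp1, a binding protein of insulin-like growth factors, at 0.44, with 7.95, 6.92 and 7.85 in TLR3-/- and 10.12, 10.19 and 10.05 in TLR3wt livers. The phosphatidate phosphatase Lpin1 (0.57), the lysophospholipid transporter Mfsd2a (0.74) and the kinase Plk3 (0.80) were next. These scores describe 6 arrays and rank genes by the size of their difference as much as by its shape.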

How the data were processed

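Each of 6 mice gave 1 array of total liver RNA, and groups were taken from the sample titles. The submitters' processing notes name RMA and Affymetrix Expression Console as the authors' source of the deposited log2 values. RMA background-corrects, quantile-normalises and summarises probe sets, so no further scaling was applied. What set the floor of 5, where 57.2% to 57.6% of an array's values stand, is not stated in those notes. A difference is understated where only the lower group has values at the floor, and a group wholly at the floor gives only a bound. With values at the floor in both groups, the error can go either way.

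Symbols came from the array annotation, updated by gene identifier through RefSeq's GRCm38.p6 table, which matched 99.6%. Of all probe sets 21789 had 1 symbol, 1621 several and 12147 none. Promoters came from RefSeq (GRCm38.p6). Where a gene had several probe sets, the one with the highest mean over the arrays was used.

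The test was limma's (version 3.58.1, R 4.3.3; lmFit, eBayes, two-sided, Benjamini-Hochberg over the 16639 tested probe sets). The 18918 probe sets at the floor on every array were left out, since they enter the common variance (prior degrees of freedom 2.20 without and 0.0626 with them). The procedure was tested on simulated data. Alternatives covered filters, normalisation, variance models, array weights, a replicate block and leaving out each mouse. The replicate numbers share no stated litter or batch, and the number of arrays limits the precision.

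The genes, lists, tests and alternatives were chosen with earlier results of these data known. The text names the 10 genes, Tlr3, for each wider list its passing genes or, with none, the 4 of smallest unadjusted p, marker list totals with a few of their genes, and the 4 genes nearest to Hamp and to its mirror image. Beyond that rule the text gives all 8 BMP-SMAD targets, separate genes of the regulator and marker lists, the neighbours of Hamp, and genes said to be named after their values were seen.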

Additional observations from a re-analysis of the deposited data

How the results depend on the processing

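The direction of Hamp held in all 19 alternatives, and its call in 7. The call was lost at a difference of 2.57 with all 35557 probe sets entered, with 1-symbol probe sets alone, with identical probe sets once, with ordinary pooled variance and with the replicate block. It was also lost at 2.52 after quantile normalisation again and at 2.54 with arrays centred on the median. Adjusted p for Hamp lay between 0.0516 and 0.410 in the settings that lost the call and between 0.0143 and 0.0458 in those that kept it. Without 1 mouse the difference ranged from 2.28 to 2.86. In every setting that lost the Hamp call the count of passing genes among the 10 was 0, and it was 0 or 1 without 1 mouse. The other 9 genes passed in 0 settings, and all kept their sign except Fth1, which ranged from -0.034 to 0.027 without 1 mouse and was positive without TLR3-/- replicate 2.

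The 31 called probe sets became 0 with all probe sets entered (2018 at an unadjusted p under 0.05), 18 above the floor on all arrays, 1 with 1 symbol, 3 with identical ones once, 9 after quantile normalisation again, 14 after centring and 2 with ordinary pooled variance. Without 1 mouse the count was 0 to 13. Of the wider lists 1 gene, Id3, passed above the floor on all arrays and with a mean at least 1 above it.

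Same-numbered mice did not deviate together (correlations of deviations 0.05, -0.01 and -0.06), so the numbers were not taken as pairs. With the replicate block 4 probe sets and 0 of the 10 genes passed, with an adjusted p of 0.155 for Hamp. Signals near the floor limit what can be said of Hamp2, Bmp6, Id1, Id4 and Il1b.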

Other observations

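The genes beside the hepcidin pair on chromosome 7, looked up after the Hamp values were seen, gave unlike values. Usf2, the protein-coding gene next to Hamp and a transcription factor gene, measured 7.41, 7.43 and 7.40 in TLR3-/- livers and 7.44, 7.38 and 7.42 in TLR3wt livers. Its log2 difference was -0.00 (95% interval -0.12 to 0.12, limma adjusted p = 0.981). Lsr, the next gene, which encodes a lipoprotein receptor, was 8.54, 8.37 and 8.53 in TLR3-/- livers, against 8.87, 8.91 and 9.12 in TLR3wt livers. All 3 TLR3-/- livers lay lower, where 7.62% of tested genes did, and the difference of -0.49 did not pass (limma adjusted p = 0.123). On the other side, Mag and Cd22 were at the floor on all 6 arrays.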
